A study of Mus musculus with 6 samples.

Results

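Amino acid transporters were described in N9 cells, an immortalised mouse microglial line, by RNA-seq gene counts. The members were the protein-coding genes whose symbols begin with Slc1a, Slc3a, Slc6a, Slc7a, Slc36a, Slc38a or Slc43a followed by a number, which gave 61 of the 54532 genes in the table. The 3 control libraries came from untreated cells, and the 3 LPS libraries from cells given lipopolysaccharide at 1 µg/ml for 6 hours. Both groups were the same cell line, grown in the same RPMI medium with serum and antibiotics. The comparison asks which carriers differ in transcript level between LPS-stimulated and unstimulated microglia. The libraries held 16363767 to 17956772 counts each. Nothing states that the replicates were separate cultures, so p-values measure only the spread between these samples, which may be technical.

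Solute carrier proteins of these families move amino acids and related small molecules across the plasma membrane or the lysosomal membrane. Several SLC7 proteins work only as pairs with a heavy chain from the SLC3 family, which brings the light chain to the cell surface. In microglia and macrophages, cystine uptake supplies glutathione synthesis and releases glutamate, while arginine uptake supplies nitric oxide synthase. Not every protein with such a name carries an amino acid, since the SLC6 family also includes carriers of taurine, creatine, betaine and GABA, and SLC43A3 carries purine nucleobases.

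Of the 61 members, 29 had enough counts for a test and 32 did not. Among the 29 tested members, 12 were higher and 5 were lower with LPS by edgeR's quasi-likelihood test at an adjusted p under 0.05, and 12 did not pass. The 12 higher members were 41.4% of those tested, beside 18.7% of the 12296 genes tested. The 5 lower members were 17.2%, beside 15.7% of all genes tested. Slc7a11, the cystine and glutamate exchanger, and Slc7a2, a cationic amino acid carrier, passed the study's threshold for a differentially expressed gene (DEG), an absolute log2 fold change over 1.5. These 2 DEG were 6.9% of the tested members, beside 2.4% of all genes tested that were up-regulated DEG. No tested member was a down-regulated DEG in the edgeR fit, beside 0.252% of all genes tested, although 5 members were lower at an adjusted p under 0.05. DESeq2 also gave 0 down-regulated DEG among the members. No p-value cutoff could give one in the edgeR fit, since its lowest log2 fold change was -1.05, for Slc7a4. The same edgeR test without LPS replicate 1 gave 1 down-regulated DEG, Slc1a2 (log2 fold change -1.69, adjusted p = 0.0428). The 3 control and 3 LPS values did not overlap for 20 of the 29 tested members, beside 45.3% of all genes tested, with LPS above control in 14 and below in 6. The median log2 fold change was 0.11 over the tested members and 0.00 over all genes tested. Scaling to total counts alone, an alternative chosen after seeing the data, shifted the median of all genes tested by -0.098 and gave 8 members higher and 6 lower.

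**Figure D1:**
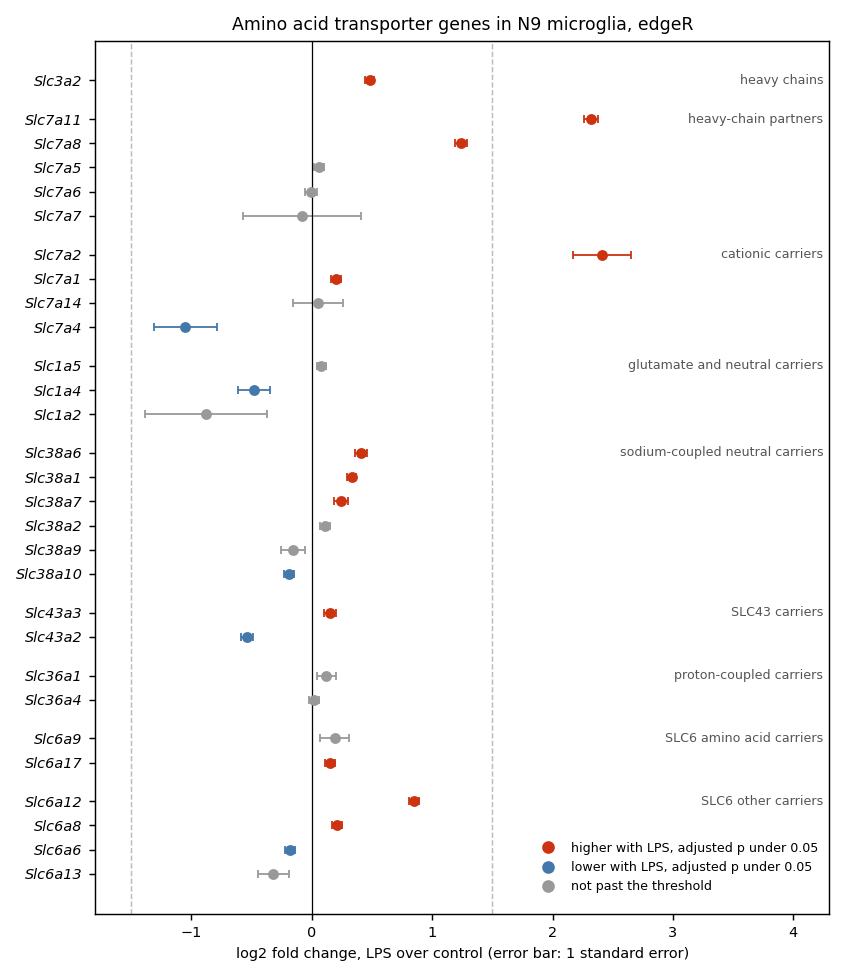
Each row is 1 of the 29 tested members, grouped by role, and the horizontal axis is the log2 fold change of LPS over control with 1 standard error. Red points were higher and blue points lower at an adjusted p under 0.05, grey points did not pass, and the dashed lines mark an absolute log2 fold change of 1.5, which Slc7a11 (2.32) and Slc7a2 (2.41) exceeded.

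The RNA carried macrophage transcripts but few of the markers that define microglia in the brain. Counts of Csf1r, the receptor for the microglial growth factor CSF1, were 7140 to 8027, and Cd68 counts were 10267 to 11691. By contrast, Siglech was at 0 in every library, Sall1 at 0 or 1 and P2ry12 at 3 to 6. Of 20 microglial and macrophage markers, 18 exceeded 3 counts in some library. Control replicates 2 and 3 stood apart by low counts of liver transcripts: 33 hepatocyte markers summed to 460 and 669 counts there, 8 in control replicate 1, and 9 to 20 in the LPS libraries. For Alb the control libraries held 2, 155 and 292 counts, and the LPS libraries 2, 0 and 0. The other 2 of the 35 hepatocyte markers had many counts in every library. Hp, an acute-phase protein gene, had 876 to 949 counts in control and 1965 to 2115 with LPS, and Ambp had 86 to 124 and 74 to 100. Hp made up most of the summed level of the list with LPS, and the summed level of all 35 was 57 to 93.1 CPM (counts scaled to library size after TMM normalisation) in control and 130 to 134 CPM with LPS. The part of these transcripts in the results was not tested. A fit of control replicate 1 alone against the LPS libraries was added after seeing the data. The median log2 fold change over the tested members was 0.106 there, beside 0.108 with all libraries. With 1 control library, that fit cannot show what part the liver transcripts had. In bulk RNA, fewer cells of a type and less RNA per cell cannot be told apart.

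Promoter sequences of 4 members are shown because they hold letters of response elements that are known in stress and inflammation, and because they belong to members that moved in opposite directions. They come from RefSeq on the build GRCm38.p6, run 5′ to 3′ on the strand of the gene, and positions are counted from the annotated start. The first pair was searched for the C/EBP-ATF response element (CARE), the letters TGATGNAAN on either strand. ATF4, the transcription factor of the amino acid starvation response, binds this element. The Slc7a11 stretch is chr3:50443614-50443863 on the minus strand, bases -250 to -1, and the Slc1a4 stretch is chr11:20332704-20332843 on the minus strand, bases -130 to 10. Capitals mark the CARE letters.
Slc7a11: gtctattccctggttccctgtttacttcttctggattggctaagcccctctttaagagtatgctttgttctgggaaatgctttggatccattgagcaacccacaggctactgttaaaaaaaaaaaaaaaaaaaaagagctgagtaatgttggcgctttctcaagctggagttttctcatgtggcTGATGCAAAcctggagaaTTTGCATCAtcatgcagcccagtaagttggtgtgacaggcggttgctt
Slc1a4: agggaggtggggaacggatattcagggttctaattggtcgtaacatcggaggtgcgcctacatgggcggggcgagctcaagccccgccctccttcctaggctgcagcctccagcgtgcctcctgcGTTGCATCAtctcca

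Slc7a11 held the CARE letters at -66 on the strand of the gene and at -48 on the other strand. Slc1a4 held 1 match, beginning at -5 on the other strand. Slc7a11 was higher and Slc1a4 lower with LPS, as the values below give. CARE letters stood in 3.95% of all 32851 windows of 300 bases and in 4 of the 37 windows of the 21 tested members that had one. Only 23 of the 32851 windows, 0.07%, held 2 or more matches, and they included that of Slc7a11 and 1 window of Slc7a7, with matches at -141 and -1. Slc7a7, the third member with CARE letters, had few counts and did not pass the test, with a log2 fold change of -0.08. Of the tested members, Slc1a5, Slc38a1, Slc43a3, Slc6a6, Slc6a8, Slc7a2, Slc7a4 and Slc7a5 had no window.

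The second pair holds the kappa B element, to which NF-kappa B binds, in 1 upstream window each. The Slc6a12 stretch is chr6:121342384-121342513 on the plus strand, bases -190 to -61 of the first of its 5 windows, and the Slc43a2 stretch is chr11:75531444-75531563 on the plus strand, bases -250 to -131. Capitals mark the kappa B match.
Slc6a12: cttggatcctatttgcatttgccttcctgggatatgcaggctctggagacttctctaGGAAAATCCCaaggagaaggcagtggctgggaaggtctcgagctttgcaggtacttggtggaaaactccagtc
Slc43a2: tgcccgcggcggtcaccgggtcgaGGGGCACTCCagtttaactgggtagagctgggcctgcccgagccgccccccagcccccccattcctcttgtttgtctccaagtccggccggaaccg

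Slc6a12 was higher and Slc43a2 lower with LPS. Kappa B matches, taken on either strand, stood in 8.46% of all windows and in 6 of the 37 member windows, which belonged to 5 members. The other 3, Slc6a13, Slc36a4 and Slc7a7, did not pass the test. The antioxidant response element, TGACNNNGC on either strand, stood in 12.4% of all windows and in 8 of the 37 member windows. These belonged to 6 members, of which Slc7a1 was higher and Slc6a9, Slc6a13, Slc7a6, Slc36a1 and Slc38a2 did not pass the test. In the member windows, matches of different elements overlapped in 0 places, and a match is a description of letters only.

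Among the heavy chains and their partners, Slc3a2, Slc7a11 and Slc7a8 rose with LPS and the other 3 tested genes did not pass, where 18.7% of all genes tested were higher and 15.7% lower. Slc3a2 (ENSMUSG00000010095) encodes the heavy chain 4F2hc, also called CD98, that LAT1, LAT2, xCT and the y+L carriers need. Its level was 231, 223 and 232 CPM in control and 326, 316 and 312 CPM with LPS. The groups did not overlap, and Slc3a2 rose 1.39-fold, with a log2 fold change of 0.48 (SE 0.04, adjusted p = 3.4e-07). Slc3a1, the heavy chain rBAT of kidney and gut, had at most 1 count in any library, while Prepl, which overlaps it on the opposite strand, had 545 to 639.

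Slc7a11 (ENSMUSG00000027737, chr3:49892526-50443614) encodes xCT, which exchanges extracellular cystine for intracellular glutamate. The 3 control libraries held 586, 699 and 749 of its reads, and the 3 LPS libraries 2896, 3126 and 3225. On the CPM scale these were 34.2, 39.6 and 40.3 against 184, 191 and 196, so the lowest LPS library stood far above the highest control library. Slc7a11 rose 4.99-fold, with a log2 fold change of 2.32 (SE 0.06, adjusted p = 3.4e-13). Its log2 fold change was 2.48 against control replicate 1 alone and 2.24 to 2.36 when each library was left out in turn. The promoter with CARE letters on both strands, printed above, belongs to this gene.

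Slc7a8 (ENSMUSG00000022180, chr14:54722209-54781946) encodes LAT2, an exchanger of large and small neutral amino acids. Its level was 81.5, 85.7 and 87.9 CPM in control and 206, 210 and 189 CPM with LPS. The groups were well apart, and Slc7a8 rose 2.37-fold, with a log2 fold change of 1.24 (SE 0.05, adjusted p = 8.7e-11). This rise stayed under the DEG threshold of 1.5. In every alternative tried its log2 fold change lay between 1.15 and 1.31.

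The other tested partners did not pass the test. Slc7a5, which encodes LAT1, the exchanger of leucine, tryptophan and other large neutral amino acids, was at 250, 264 and 259 CPM in control and at 278, 264 and 264 CPM with LPS. Its groups overlapped, with a log2 fold change of 0.06 (SE 0.04, adjusted p = 0.32). Slc7a6, the y+LAT2 exchanger of cationic for neutral amino acids, had 104 CPM in both groups and a log2 fold change of -0.01 (SE 0.05). Slc7a7, the related y+LAT1, had 4 to 18 counts in a library, with a log2 fold change of -0.08 (SE 0.49). Oxa1l, on the opposite strand and overlapping Slc7a7, had 1477 to 1759 counts. Whether the counting used strand is not given in the sources used here, so reads of the 2 genes cannot be told apart where they overlap.

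**Figure D2:**
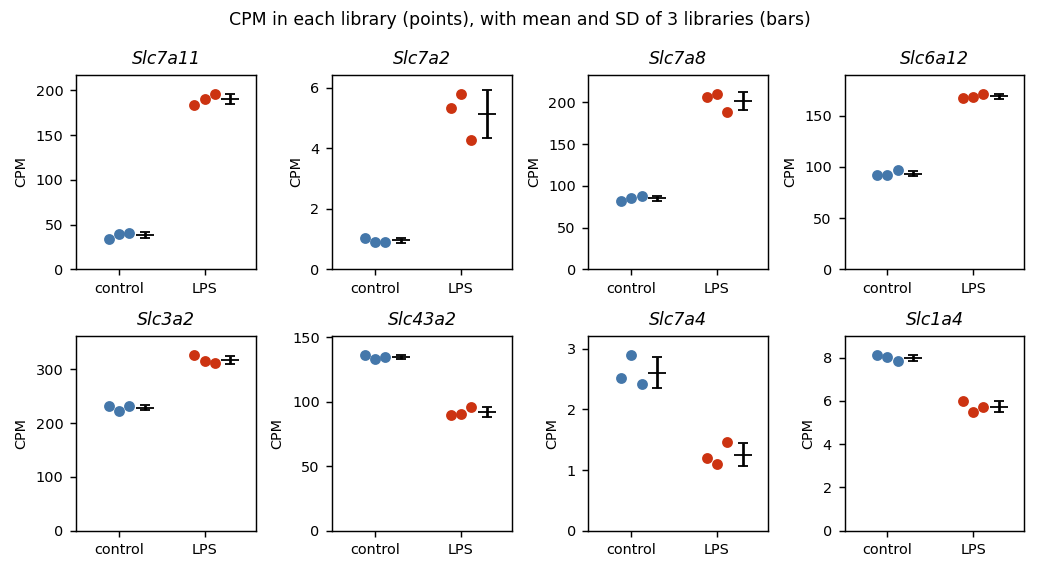
Each panel shows 1 member, with the CPM of each of 3 control and 3 LPS libraries as points and the mean with its SD beside them, on a vertical axis from 0. Slc7a11, Slc7a2, Slc7a8, Slc6a12 and Slc3a2 have all LPS points above all control points, and Slc43a2, Slc7a4 and Slc1a4 have all LPS points below.

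Scaled by gene length, the levels of the partners can be set side by side as CPM per kilobase. The sum of the 10 partners was 112 ± 2.67 CPM per kilobase in control and 149 ± 4.22 with LPS (SD, n = 3), a ratio of 1.33. The ratio for the heavy chains was 1.39, from 64.8 ± 1.35 to 90.1 ± 1.94 CPM per kilobase. Shares were taken of the sum of the 5 tested partners alone. Slc7a5 made up 61.9% ± 0.347 of that sum in control and 48.5% ± 0.939 with LPS. The level of Slc7a5 itself did not pass the test. Slc7a8 made up 15.1% ± 0.349 in control and 27% ± 0.96 with LPS. Slc7a11 made up 2.43% ± 0.162 and 9.16% ± 0.567, and Slc7a6 made up 20.3% ± 0.529 and 15.2% ± 0.402. These shares of transcripts are a description with no test, and say nothing of protein or of which pairs formed.

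**Figure D3:**
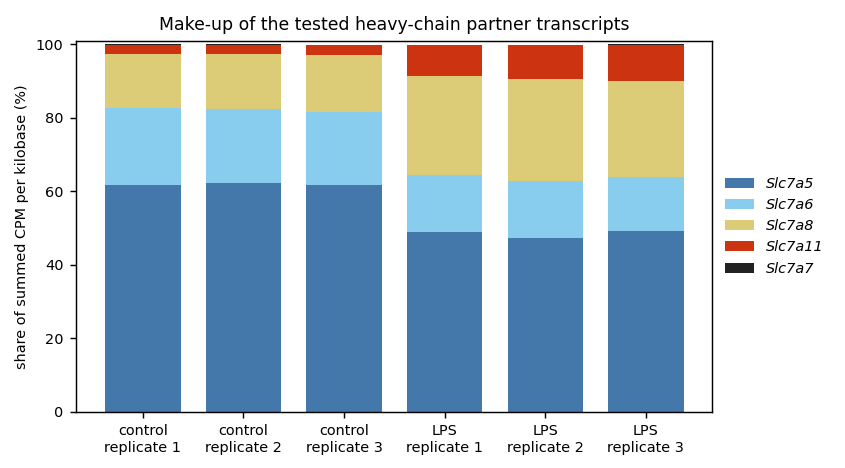
Each bar is 1 library and the colours give the share, in percent, of each tested heavy-chain partner in their summed CPM per kilobase. The mean share of Slc7a5 is 61.9% in control and 48.5% with LPS, while the shares of Slc7a8 and Slc7a11 are larger in all 3 LPS libraries.

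Among the cationic carriers, which bring in arginine, lysine and ornithine, 2 of the 4 tested members rose, 1 fell and 1 did not pass, shares of 50% and 25% beside 18.7% higher and 15.7% lower of all genes tested. Slc7a1 encodes CAT1, the general arginine carrier, and had 402 to 417 CPM in control and 461 to 483 CPM with LPS. Slc7a1 rose 1.15-fold (log2 fold change 0.20, SE 0.04, adjusted p = 8.6e-04). Slc7a2 (ENSMUSG00000031596, chr8:40862396-40922308) encodes CAT2, the arginine carrier known to be induced in activated macrophages. It had 18, 16 and 17 counts in control and 84, 95 and 70 counts with LPS. All 3 LPS libraries exceeded all control libraries, and Slc7a2 rose 5.33-fold, with a log2 fold change of 2.41 (SE 0.24, adjusted p = 1.8e-06).

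The rise of Slc7a2 left it scarce. Its level with LPS was 0.561 ± 0.0859 CPM per kilobase, beside 40.7 ± 1.07 for Slc7a1 (SD, n = 3). The sum of the cationic carriers was 36.5 ± 0.785 CPM per kilobase in control and 42 ± 1.16 with LPS, a ratio of 1.15. Slc7a4 (ENSMUSG00000022756, chr16:17572018-17583214) belongs to the CAT family by sequence. It had 43, 51 and 45 counts in control and 19, 18 and 24 with LPS. These groups did not overlap, and Slc7a4 fell 2.07-fold, with a log2 fold change of -1.05 (SE 0.26, adjusted p = 0.00596). Against control replicate 1 alone the value was -0.99 and was not past the threshold. P2rx6, which overlaps Slc7a4 on the opposite strand, had 3, 15 and 19 counts in control and 2, 1 and 1 with LPS, and its part in the result was not tested. Slc7a14, a lysosomal member of the same family, had a log2 fold change of 0.05 (SE 0.21) with overlapping groups. The antisense gene Gm15496 overlaps it and had 62 to 74 counts in control and 79 to 123 with LPS.

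In the SLC1 family, the abundant glutamine exchanger and the scarcer carriers differed in their values. Slc1a5 encodes ASCT2, the exchanger of glutamine, alanine and serine. It was at 314, 318 and 321 CPM in control and at 323, 342 and 343 CPM with LPS. The groups did not overlap but lay close, with a log2 fold change of 0.08 (SE 0.04, adjusted p = 0.143). Slc1a4, which encodes the related neutral carrier ASCT1 and is the second gene printed with CARE letters, had 7.85 to 8.11 CPM in control and 5.49 to 6.02 CPM with LPS. Slc1a4 fell 1.39-fold, with a log2 fold change of -0.48 (SE 0.13, adjusted p = 0.0116). With DESeq2 its adjusted p was 0.0541, and against control replicate 1 alone it was 0.0999. Slc1a2, the main glutamate carrier of astrocytes, had 12, 13 and 18 counts in control and 13, 5 and 3 with LPS. Its log2 fold change of -0.88 (SE 0.51) did not pass, with an adjusted p of 0.206, and it was -1.69 without LPS replicate 1 (adjusted p = 0.0428) and -0.51 without LPS replicate 3 (adjusted p = 0.519). Slc1a1 had at most 4 counts and Slc1a3, the other astrocyte glutamate carrier, at most 3, so neither was tested.

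The sodium-coupled neutral carriers of the SLC38 family gave 3 higher, 1 lower and 2 not past the threshold of the 6 tested, shares of 50% and 16.7% beside 18.7% and 15.7% of all genes tested. Slc38a6, a poorly described member of the family, rose from 70.2 to 74.4 CPM in control to 94.4 to 97.8 CPM with LPS, a log2 fold change of 0.41 (SE 0.05, adjusted p = 6.3e-06). Slc38a1, the glutamine carrier SNAT1, rose from 247 to 268 CPM to 319 to 327 CPM, a log2 fold change of 0.33 (SE 0.04, adjusted p = 2.4e-05). Slc38a7, which exports glutamine from lysosomes, rose by a log2 fold change of 0.24 (SE 0.06, adjusted p = 0.00473), and its adjusted p against control replicate 1 alone was 0.182. Slc38a10 fell, with a log2 fold change of -0.19 (SE 0.04, adjusted p = 0.0035). Slc38a2, the carrier SNAT2 that amino acid starvation induces, had a log2 fold change of 0.11 (SE 0.04, adjusted p = 0.0607). Its 445 to 488 CPM in control lay below the 501 to 516 CPM with LPS without overlap. Against control replicate 1 alone its log2 fold change was 0.19 (adjusted p = 0.0197), and without that library it was 0.06 (adjusted p = 0.275). Slc38a9, the arginine sensor of the lysosome, was not past the threshold at -0.16 (SE 0.10, adjusted p = 0.242).

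The 2 tested SLC43 members moved in opposite directions. Slc43a2 (ENSMUSG00000038178, chr11:75531694-75577575) encodes LAT4, which lets branched-chain amino acids and phenylalanine pass without a heavy chain. It was at 136, 133 and 135 CPM in control and at 89.7, 90.4 and 96.2 CPM with LPS. The groups were clearly apart, and Slc43a2 fell 1.46-fold, with a log2 fold change of -0.54 (SE 0.05, adjusted p = 2.5e-07). The antisense gene Gm45606, which overlaps Slc43a2, had 60 to 72 counts in control and 34 to 42 with LPS, beside 1416 to 2503 counts of Slc43a2 itself. Slc43a3, the nucleobase carrier, rose by a log2 fold change of 0.15 (SE 0.05, adjusted p = 0.0436). That call was lost in 9 of 16 alternatives, among them without control replicate 1 or 3 and without LPS replicate 1 or 2, with adjusted p up to 0.464. Slc36a1 and Slc36a4, the proton-coupled carriers PAT1 and PAT4 of the lysosome and plasma membrane, did not pass, with log2 fold changes of 0.12 (SE 0.08) and 0.02 (SE 0.04) and overlapping groups.

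In the SLC6 family the clearest difference was in a carrier of betaine and GABA. Slc6a12 (ENSMUSG00000030109, chr6:121343076-121365775) encodes BGT1, which takes up the osmolyte betaine. Its level was 91.7, 92 and 96.7 CPM in control and 167, 168 and 171 CPM with LPS. The groups were far apart relative to their spread, and Slc6a12 rose 1.8-fold, with a log2 fold change of 0.85 (SE 0.04, adjusted p = 1.1e-09). Slc6a13, the GABA carrier GAT2 that lies beside it on the same strand, had 269, 194 and 261 counts in control and 172, 179 and 179 with LPS. Its log2 fold change of -0.32 (SE 0.13) did not pass, with an adjusted p of 0.0748, and it was -0.45 without control replicate 2 (adjusted p = 0.00905) and -0.21 without control replicate 1 (adjusted p = 0.252).

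Slc6a6, the taurine carrier, had the highest mean level per kilobase of all tested members. It was at 694, 727 and 706 CPM in control and at 604, 645 and 628 CPM with LPS. The groups did not overlap, and Slc6a6 fell 1.13-fold, with a log2 fold change of -0.18 (SE 0.04, adjusted p = 0.0015). Against control replicate 1 alone its adjusted p was 0.0595. Slc6a8, the creatine carrier, was at 357, 345 and 372 CPM in control and at 398, 421 and 423 CPM with LPS. All LPS libraries were above all control libraries, and Slc6a8 rose by a log2 fold change of 0.21 (SE 0.04, adjusted p = 0.00146). Slc6a17, a vesicular carrier of neutral amino acids, rose from 292 to 299 CPM to 321 to 332 CPM (log2 fold change 0.15, SE 0.04, adjusted p = 0.00699). The calls of Slc6a8 and Slc6a17 were both lost when libraries were scaled to total counts alone. Slc6a9, the glycine carrier GLYT1, did not pass at 0.19 (SE 0.12, adjusted p = 0.227).

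Per kilobase, 5 carriers formed the top of the order with close levels. Their means over the 6 libraries were 78.9 CPM per kilobase for Slc6a6, 78.3 for Slc1a5, 77.5 for Slc3a2, 74.1 for Slc6a8 and 70.9 for Slc7a5. The order differed by group. In control, Slc6a6 led with 83.8 ± 1.94, followed by Slc1a5 with 76.1 ± 0.802, Slc7a5 with 69.5 ± 2, Slc6a8 with 68.7 ± 2.65 and Slc3a2 with 64.8 ± 1.35 (SD, n = 3). Slc7a5 and Slc6a8 were within 1 SD of each other. With LPS, Slc3a2 led with 90.1 ± 1.95, followed by Slc1a5 with 80.5 ± 2.61 and Slc6a8 with 79.5 ± 2.61, which lay within 1 SD of each other. Slc6a6 followed with 74 ± 2.47 and Slc7a5 with 72.4 ± 2.12, again within 1 SD. Slc7a11 was far below these, at 2.73 ± 0.24 CPM per kilobase in control and 13.7 ± 0.461 with LPS.

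**Figure D4:**
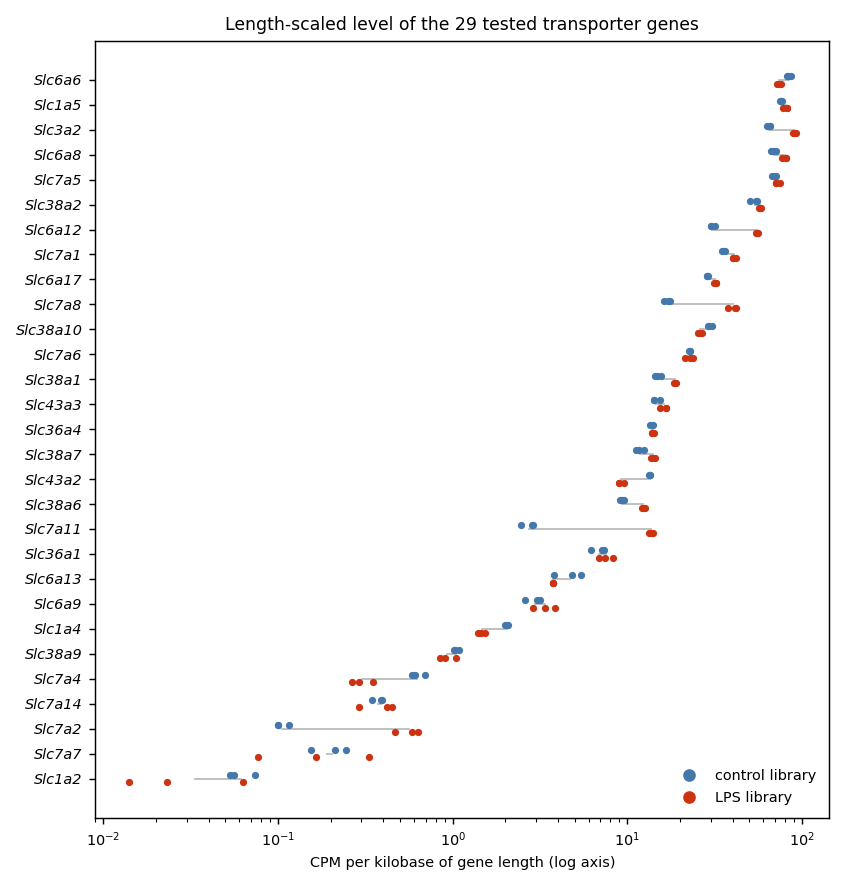
Each row is 1 tested member in order of its mean level, and the horizontal log axis gives CPM per kilobase of gene length for each control library (blue) and LPS library (red), with a grey line between the group means. Levels run from 0.0472 CPM per kilobase for Slc1a2 to 78.9 for Slc6a6, and Slc7a11, Slc7a2, Slc7a8 and Slc6a12 (higher with LPS) and Slc7a4 (lower with LPS) have wide gaps between groups that do not overlap.

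The summed level of all 61 members was 680 ± 6.98 CPM per kilobase in control and 788 ± 7.23 with LPS (SD, n = 3), a ratio of 1.16. By role, the ratio was lowest for the SLC43 carriers, at 0.907, and highest for the heavy chains, at 1.39. The ratio was 1.05 for the SLC1 carriers, 1.08 for the SLC38 carriers and 1.04 for the SLC36 carriers. It was 1.12 for the SLC6 amino acid carriers and 1.13 for the other SLC6 carriers. Such sums weigh the abundant genes most and rest on the scaling between libraries. The 32 members that were not tested added little: 14 were at 0 in every library, 9 never exceeded 3 counts, and 9 exceeded 3 counts somewhere. A count of 0 allows up to 3 counts, or 0.161 to 0.19 CPM, and this covers counting error only. The highest single count among them was 14, for Slc6a19, a neutral amino acid carrier of gut and kidney, with 6, 3 and 8 counts in control and 8, 14 and 12 with LPS. Slc38a4, a carrier of the liver, had 1, 10 and 2 counts in control and 0, 1 and 3 with LPS. The hepatocyte markers summed to more counts in control replicate 3 than in control replicate 2, and their part in the Slc38a4 counts was not tested.

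Other genes of amino acid handling were read from 5 lists, whose counts stand beside 18.7% of all genes tested that were higher and 15.7% that were lower. Of 27 tested genes of the integrated stress response, the pathway that ATF4 drives, 8 were higher (29.6%), 4 lower (14.8%) and 15 not past the threshold, with a median log2 fold change of 0.07. The share of lower genes was near that of all genes tested. Scaled to total counts alone, the list gave 5 higher and 7 lower. Leaving out control replicate 3 gave 5 higher, and leaving out LPS replicate 2 gave 2 lower. The DEG of this list was Eif2ak2, which encodes the interferon-induced kinase PKR, at 61.1 ± 3.24 CPM in control and 188 ± 9.06 CPM with LPS (log2 fold change 1.62, adjusted p = 5.2e-12). The following genes were chosen for naming after their values were seen. Atf4 rose by a log2 fold change of 0.15 (adjusted p = 0.00955), Cebpb by 0.98 and Cth, which makes cysteine, by 0.60. Asns, the asparagine synthetase that ATF4 is known to induce, had a value of 0.10 (adjusted p = 0.0933), Trib3 of 0.27 (adjusted p = 0.0532) and Psat1 of -0.06 (adjusted p = 0.259). With control replicate 1 alone the list gave 5 higher and 0 lower.

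Of 20 tested genes of glutathione and the NRF2 response, 11 were higher (55%, beside 18.7% of all genes tested), 2 lower (10%, beside 15.7%) and 7 not past the threshold, with a median of 0.22 and no DEG in either direction. Again named after their values were seen, Hmox1, heme oxygenase, rose by a log2 fold change of 1.29 and Srxn1, sulfiredoxin, by 0.73. Gclm, the modifier subunit of the enzyme that joins glutamate to cysteine, rose by 0.23, and Gclc, its catalytic subunit, fell with a value of -0.43 (adjusted p = 1.1e-05). Nqo1, a standard NRF2 target, was at -0.09 (adjusted p = 0.698).

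Of 15 tested genes of arginine and tryptophan use, 5 were higher (33.3%, beside 18.7% of all genes tested), 2 lower (13.3%, beside 15.7%) and 8 not past the threshold, with a median of 0.06. The lower genes numbered 5 with scaling to total counts alone, 1 without control replicate 3 and 3 without control replicate 2. The DEG was Nos2, inducible nitric oxide synthase, with 0, 2 and 2 counts in control and 285, 385 and 312 counts with LPS. Of 35 tested genes of amino acid sensing at the lysosome, 2 were higher (5.71%, beside 18.7%), 7 lower (20%, beside 15.7%) and 26 not past the threshold, with a median of -0.05. Scaling to total counts alone made that 1 higher and 14 lower. Of 18 tested amino acid and peptide carriers outside the families above, 5 were higher (27.8%, beside 18.7%), 4 lower (22.2%, beside 15.7%) and 9 not past the threshold, with a median of -0.02. The DEG among them was Slc15a3, a histidine and peptide carrier of the lysosome, which rose from 131 ± 4.32 CPM to 455 ± 4.68 CPM (log2 fold change 1.80, adjusted p = 1.2e-13). With libraries scaled to total counts alone, the 18 outside carriers gave 3 higher and 5 lower.

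**Figure D5:**
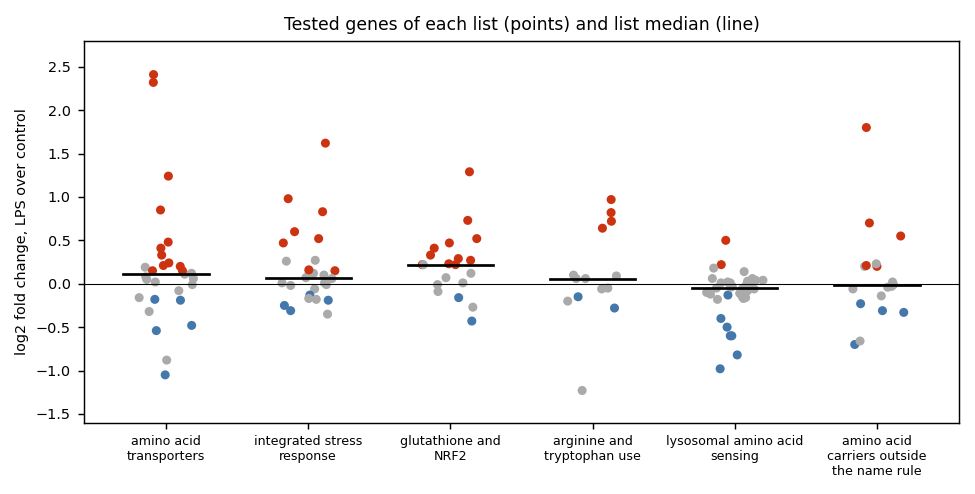
Each point is 1 tested gene of a list, the vertical axis is the log2 fold change of LPS over control, and the black line is the list median. Red and blue points were higher or lower at an adjusted p under 0.05, grey points did not pass, and Nos2 is left out because its control counts were 0 to 2. The medians lie between -0.05 for lysosomal sensing and 0.22 for glutathione and NRF2.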

How the data were processed

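RNA-seq libraries of untreated and LPS-treated N9 cells were compared, 3 of each. The authors deposited raw counts per gene, made with featureCounts 1.5.0-p3 on mm10 per the submitters' processing notes, with gene lengths and coordinates. The coordinates of 59 of the 61 members equalled GENCODE M21. Columns named C and L with a number were matched to the control and LPS titles of that number. A second deposited table of the authors' own fold changes and p-values was not used. The deposited gene length divided CPM to give CPM per kilobase.

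Counts were tested with edgeR 4.0.16 (R 4.3.3): filterByExpr by group, TMM scaling, glmQLFit and glmQLFTest on LPS against control over 12296 genes, with Benjamini-Hochberg adjustment and log2 fold changes at a prior count of 0.125. The standard error (SE) was derived as the absolute log2 fold change divided by the square root of that test's F statistic. A DEG passed an adjusted p of 0.05 with a log2 fold change beyond 1.5 in size. TMM factors were 1.034 to 1.036 in the control libraries and 0.9646 to 0.9699 in the LPS libraries, so this scaling differed between the groups. Every tested member is named. Values of each library are given for members past the threshold with an absolute log2 fold change over 0.5 and for the 5 highest levels per kilobase. DEG of the other lists are named, and their other named genes were chosen after their values were seen. Members and lists were chosen with earlier results of these data known. Alternatives were DESeq2 1.42.0, RLE scaling, no count filter, a mean of at least 10 counts, the protein-coding genes alone, robust dispersion, a prior count of 2, glmTreat, a replicate block and each library left out. Scaling to total counts and control replicate 1 alone were added after seeing the data. The lone control sample was then assumed to vary like the others. The fits were tested on simulated data. No molecular identifiers are named in the sources used here, so counting limits cover counting error only. The result of 1 searched promoter element is not reported here.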

Additional observations from a re-analysis of the deposited data

How the results depend on the processing

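Of the 17 members past the threshold, 10 stayed past it in all 16 alternatives run for each and none changed direction. The other 7 lost the call at least once: Slc43a3 in 9 alternatives, Slc1a4, Slc38a7 and Slc6a17 in 2 each, and Slc6a6, Slc6a8 and Slc7a4 in 1 each. DESeq2 gave 11 members higher and 4 lower, and leaving out each library gave 11 to 12 higher, 5 to 6 lower and 0 to 1 down-regulated DEG, the 1 being Slc1a2 without LPS replicate 1. Same-numbered control and LPS libraries had correlations of deviations of 0.131, 0.048 and 0.005, and LPS replicate 3 correlated best with control replicate 2 (0.077), so the numbers were not taken as pairs. The replicate block gave 13 members higher, 5 lower and 2 DEG. Slc38a2 passed under the replicate block (adjusted p = 0.0342), robust dispersion (0.0311), protein-coding genes alone (0.0455) and control replicate 1 alone (0.0197), and its adjusted p was 0.0605 to 0.881 in the others. Slc6a13 passed with no count filter (0.048), scaling to total counts (0.0202), control replicate 1 alone (0.0211) and without control replicate 2 (0.00905), and its adjusted p was 0.055 to 0.252 in the others.

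Scaling to total counts alone gave 5 higher and 7 lower integrated stress response genes, 5 lower arginine and tryptophan genes, 1 higher and 14 lower lysosomal sensing genes and 3 higher outside carriers. It also turned Slc1a5 (-0.017), Slc36a4 (-0.075), Slc7a5 (-0.038) and Slc7a14 (-0.047), none of them past the threshold. Control replicate 1 alone gave 3 lower members, 5 higher and 0 lower stress response genes, 1 lower gene each for glutathione and for arginine and tryptophan, 1 higher sensing gene and 2 lower outside carriers, with Slc7a14 at -0.014. That fit has 4 libraries. Leaving out each library gave 5 to 8 higher and 2 to 5 lower stress response genes, with 5 higher without control replicate 3 and 2 lower without LPS replicate 2. It gave 1 to 2 lower glutathione genes (1 without control replicate 3, LPS replicate 2 or LPS replicate 3), 1 to 3 lower arginine and tryptophan genes (1 without control replicate 3, 3 without control replicate 2) and 1 to 2 higher sensing genes (1 without control replicate 3). It moved Slc7a6 between -0.039 and 0.037, Slc7a7 between -0.732 and 0.282 and Slc7a14 between -0.069 and 0.223. The cause of these changes was not tested. Depth limits the members under about 20 counts, Slc1a2, Slc7a7, the control side of Slc7a2 and the LPS side of Slc7a4.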
